A study of Homo sapiens with 12 samples.

Results

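Aminoacyl-tRNA synthetases join each amino acid to its transfer RNA, and so supply the ribosome with its substrates. Human cells keep separate enzymes for the cytosol and for the mitochondrion, both encoded in the nucleus, while glycyl- and lysyl-tRNA synthetase (GARS1, KARS1) serve both compartments. Several cytosolic enzymes are bound in the multisynthetase complex, which the scaffold proteins AIMP1, AIMP2 and EEF1E1 hold together. Many cytosolic synthetase genes are known targets of ATF4, the transcription factor of the amino acid response, which is translated when amino acids are short or when other stress kinases act. The transcripts of 39 such genes were followed here, chosen by name: 18 cytosolic enzymes or subunits, 2 dual enzymes, 16 mitochondrial enzymes and 3 scaffold proteins. All 39 were found among the 58302 gene identifiers of the count table, and all 39 were among the 17849 genes with enough counts to be tested.

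RNA came from NCI-H520, established from a human squamous cell carcinoma of the lung, in 12 libraries forming 4 groups of 3. Cells with lentiviral overexpression of L1-FGGY (OV-L1-FGGY), a chimeric transcript of a LINE-1 element and FGGY, received 0.2% DMSO or 10 µM ML355, an inhibitor of the lipoxygenase 12-LOX. Cells with an empty vector (OV-CTRL) received DMSO, and a further group is labelled as OV-L1-FGGY cells with 450 µM NVR, an anti-HIV inhibitor of reverse transcriptase. By the labels all groups share the line, and by the methods the lentiviral transduction; both agents were dissolved in DMSO, and they were added when the medium was replaced 5 h after seeding, while the length of treatment is not given in the sources used here. No label says that the 3 libraries of a group came from separate cultures, so p-values may measure technical spread only.

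FGGY itself was read first, as a check of the labels. Its levels were 274, 274 and 312 CPM (read counts relative to the library total, with totals scaled by edgeR's TMM) in OV-L1-FGGY with DMSO, 362, 324 and 267 with ML355, and 3.83, 3.4 and 2.99 in OV-CTRL. The libraries labelled NVR held 4.1, 3.81 and 4.83 CPM, which does not match the overexpression that their label names, so they are called the libraries labelled NVR and were set against both DMSO groups. Across all genes the 12 libraries fell into 2 sets, with OV-L1-FGGY DMSO and ML355 on one side and OV-CTRL and labelled NVR on the other (Pearson's r of log2 CPM at least 0.932 within a side and between 0.706 and 0.774 across). Markers of cell identity differed between the sides, so that a shared line rests on the labels alone: SOX2, a squamous lineage factor, had 0 counts in all 6 OV-L1-FGGY libraries and 128 to 446 counts in the others, the adhesion protein CDH1 lay at 0 to 0.516 CPM against 8.12 to 34.7 CPM, and the fibroblast marker DCN at 9.94 to 66.6 CPM against 0 counts. Others of the same lists went the opposite way, KRT14 at 0.229 to 3.31 CPM in the OV-L1-FGGY libraries against 0 counts, and EPCAM at 7.36 to 10 CPM against 0.701 to 1.88 CPM. The squamous markers KRT6A and DSG3 had 0 counts in every library and KRT5 at most 3. Summed over each list, squamous markers lay at 0.86 to 1.53 CPM in OV-L1-FGGY DMSO, 1.7 to 3.47 with ML355, 17.2 to 21.3 in OV-CTRL and 9 to 17.2 with the NVR label. In the same order, fibroblast markers lay at 112 to 132, 47.6 to 59.4, 20.4 to 25.6 and 19.7 to 22.4 CPM, endothelial markers at 8.89 to 9.41, 0.257 to 0.69, 0.384 to 0.626 and 0.384 to 0.6, epithelial markers at 861 to 886, 436 to 560, 3826 to 5292 and 1906 to 3170, leukocyte markers at 3.33 to 4.47, 2.71 to 3.86, 3.22 to 4.65 and 9.22 to 12.7, and neuroendocrine markers at 0.403 to 0.789, 0.345 to 0.788, 5.08 to 7.57 and 16.4 to 23.6. Any comparison across the 2 sides therefore holds both the labelled difference and whatever else separates them, which cannot be told apart. A share of cells of another kind and a change in RNA per cell cannot be told apart in bulk RNA either, and the part of the markers in the results was not tested.

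Levels between genes were compared per kilobase of the canonical transcript (RPKM). The cytosolic enzymes were the more abundant class in every group: the class median was 58.2 RPKM in OV-L1-FGGY DMSO, 72.2 with ML355, 46.3 in OV-CTRL and 38.4 under the NVR label, against 9.52, 8.27, 9.27 and 8.66 RPKM for the mitochondrial enzymes. TARS1 (threonyl-tRNA synthetase) led the cytosolic class in OV-L1-FGGY DMSO at 325 ± 13.6 RPKM (SD, n = 3), followed by SARS1 (seryl) at 124 ± 5.31 and AARS1 (alanyl) at 90.1 ± 2.78. In OV-CTRL, AARS1 came first at 147 ± 4.73 RPKM, MARS1 (methionyl) next at 101 ± 0.533 and then FARSA (a subunit of phenylalanyl-tRNA synthetase) at 84.9 ± 9.05 and TARS1 at 72.9 ± 1.52. The orders of the 2 DMSO groups thus began with different enzymes, and by differences larger than the spread of the replicates. IARS2 (mitochondrial isoleucyl) led its class in all 4 groups, at 86 ± 2.71, 50.3 ± 6.47, 51.2 ± 3.76 and 34.6 ± 4.78 RPKM. TARS3, a paralog of TARS1, was the lowest cytosolic gene at 2.4 to 3.73 RPKM, and SARS2 (mitochondrial seryl) was close to the floor with 4 to 35 counts per library. Of the exon bases of SARS2, 48.2% overlap another gene on its strand, so its level is uncertain.

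With ML355, many cytosolic synthetase transcripts were higher and a part of the mitochondrial ones lower than with DMSO in OV-L1-FGGY cells. Of the 18 cytosolic genes, 12 rose and 0 fell (66.7%), and both dual enzymes rose. Over all genes tested, 21.3% rose and 23.5% fell at the same threshold (quasi-likelihood test of edgeR, p adjusted by Benjamini-Hochberg and under 0.01). Of the 16 mitochondrial enzymes, 0 rose and 7 fell (43.8%). The median log2 fold change was 0.49 for the cytosolic genes, -0.31 for the mitochondrial ones and 0.00 over all genes. Mitochondrial members were thus called lower more often than the background, and in no case higher, though the direction of a class was not tested as such.

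**Figure D1:**
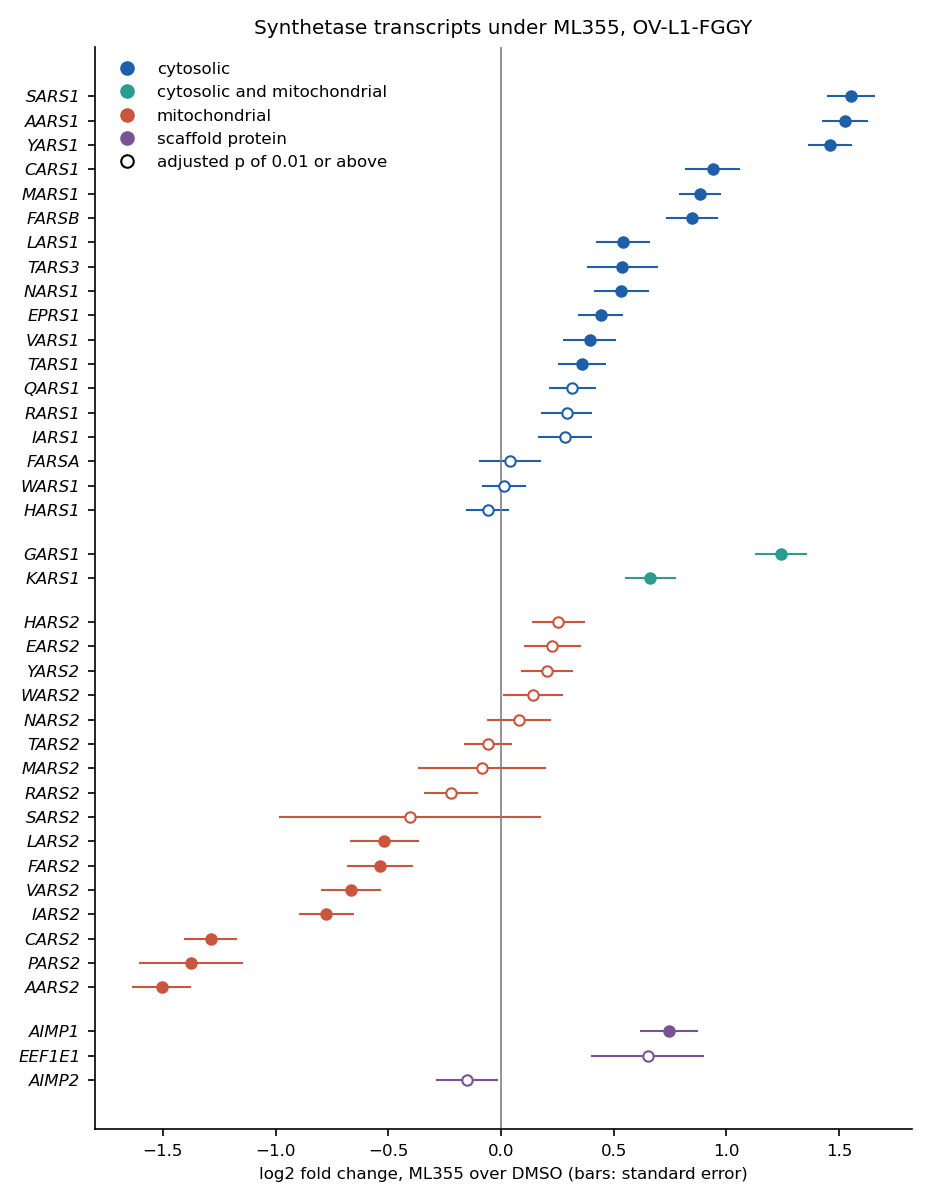
Log2 fold change of each of the 39 genes under ML355 against DMSO in OV-L1-FGGY cells (x axis, log2 scale), with the standard error as bars, grouped by class; filled points passed the adjusted p of 0.01. The cytosolic genes lie between -0.06 and 1.55 and the mitochondrial ones between -1.51 and 0.26.

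The 4 cytosolic genes with the largest rise had groups that did not overlap. Over all genes tested, 30% were higher without overlap. SARS1 went from 243, 244 and 226 CPM with DMSO to 750, 639 and 702 CPM with ML355, a log2 fold change of 1.55 ± 0.106 (SE; edgeR adjusted p = 8.15e-09). AARS1 went from 308, 320 and 301 CPM to 854, 901 and 922 CPM (log2 fold change 1.53 ± 0.101, edgeR adjusted p = 5.89e-09). YARS1 (tyrosyl) went from 185, 181 and 176 CPM to 517, 454 and 521 CPM (log2 fold change 1.46 ± 0.0991, edgeR adjusted p = 7.53e-09). These enzymes, for the unrelated amino acids serine, alanine and tyrosine, thus rose 2.93-, 2.88- and 2.75-fold, with every treated library above every control. CARS1 (cysteinyl) rose from 80.8, 90.6 and 81 CPM to 166, 157 and 160 CPM, 1.92-fold. The dual enzyme GARS1 rose 2.37-fold, from 291, 302 and 304 CPM to 788, 720 and 613 CPM, and KARS1 1.58-fold, from 185, 199 and 193 CPM to 336, 300 and 277 CPM. Both sets of 3 libraries stood apart for each gene, although replicate 3 was the lowest of the treated libraries for both dual enzymes.

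The other cytosolic genes that rose did so by less. MARS1 rose 1.84-fold, FARSB (the beta subunit of phenylalanyl-tRNA synthetase) 1.8-fold, LARS1 (leucyl), TARS3 and NARS1 (asparaginyl) 1.45-fold each, EPRS1 (glutamyl-prolyl) 1.36-fold, VARS1 (valyl) 1.31-fold and TARS1 1.28-fold. MARS1 shares 12.4% of its exon bases with genes on the opposite strand, DDIT3 among them, and the strand setting of the counting is not given, so that part of its reads is uncertain. FARSA, the partner subunit of FARSB, had a log2 fold change of 0.04 ± 0.136 (adjusted p = 0.831, edgeR), so 1 of the 2 subunits of this enzyme was called. WARS1 (tryptophanyl) had 0.01 ± 0.097 and HARS1 (histidyl) -0.06 ± 0.0958, while QARS1 (glutaminyl), RARS1 (arginyl) and IARS1 (isoleucyl) had values of 0.32, 0.29 and 0.28, with groups that did not overlap but adjusted p of 0.0172, 0.0374 and 0.0523 (edgeR). With library size alone in place of TMM, 6 cytosolic genes rose and 0 fell (33.3% and 0%). Over all genes tested, 16.7% rose and 25.8% fell under this scaling, and their median moved to -0.13. The calls of TARS1, TARS3 and VARS1 were lost in 5 of the 6 fits that left out a single library of these groups (adjusted p by edgeR up to 0.0491, 0.0461 and 0.0442). TARS1 and TARS3 kept theirs only without ML355 replicate 3 and VARS1 only without ML355 replicate 2, and NARS1 lost its call without DMSO replicate 3 (0.0108). QARS1 was called without ML355 replicate 2 (edgeR adjusted p = 0.00798) and RARS1 without ML355 replicate 3 (0.00741). Reads shared by TARS1 and its paralog TARS3 may have been split by the counting.

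The mitochondrial enzymes that fell were led by AARS2, the mitochondrial counterpart of AARS1. AARS2 fell from 20.8, 25.5 and 23.7 CPM to 8.33, 8.5 and 7.83 CPM, a log2 fold change of -1.51 ± 0.131 (SE; edgeR adjusted p = 1.02e-07). PARS2 (prolyl) was at 7.69, 8.31 and 7.81 CPM with DMSO and at 1.97, 4.27 and 2.94 CPM with ML355 (log2 fold change -1.37 ± 0.23, edgeR adjusted p = 9.82e-05). CARS2 (cysteinyl) was at 56.1, 55 and 56.8 CPM and at 21.9, 23.1 and 23.8 CPM (log2 fold change -1.29 ± 0.118, edgeR adjusted p = 1.84e-07). In these 3 genes every treated library lay below every control, as in 32.6% of all genes tested. IARS2, the most abundant of the class, went from 311, 293 and 307 CPM to 172, 203 and 158 CPM, again without overlap, at 0.585 times its control level. VARS2 (valyl), FARS2 (phenylalanyl) and LARS2 (leucyl) fell to 0.631, 0.69 and 0.699 times the control. LARS2 lost its call in 5 of the 6 fits without a single library (all but that without DMSO replicate 1, adjusted p by edgeR up to 0.048) and FARS2 in 4 (without DMSO replicate 1 or 2 or ML355 replicate 2 or 3, up to 0.0257). The other 9 had log2 fold changes from -0.40 (SARS2, few counts) to 0.26 (HARS2, histidyl), and HARS2, EARS2 (glutamyl), YARS2 (tyrosyl), WARS2 (tryptophanyl) and NARS2 (asparaginyl) lay above 0. The HARS1 and HARS2 genes stand head to head on chromosome 5 (140673035 to 140691537 on the minus strand and 140691430 to 140699305 on the plus strand, hg38). They overlap only between 140691430 and 140691537. Of the exon bases of HARS1, 8.5% overlap genes on the opposite strand, WDR55 as well as HARS2. Neither HARS1 nor HARS2 was called under ML355.

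**Figure D2:**
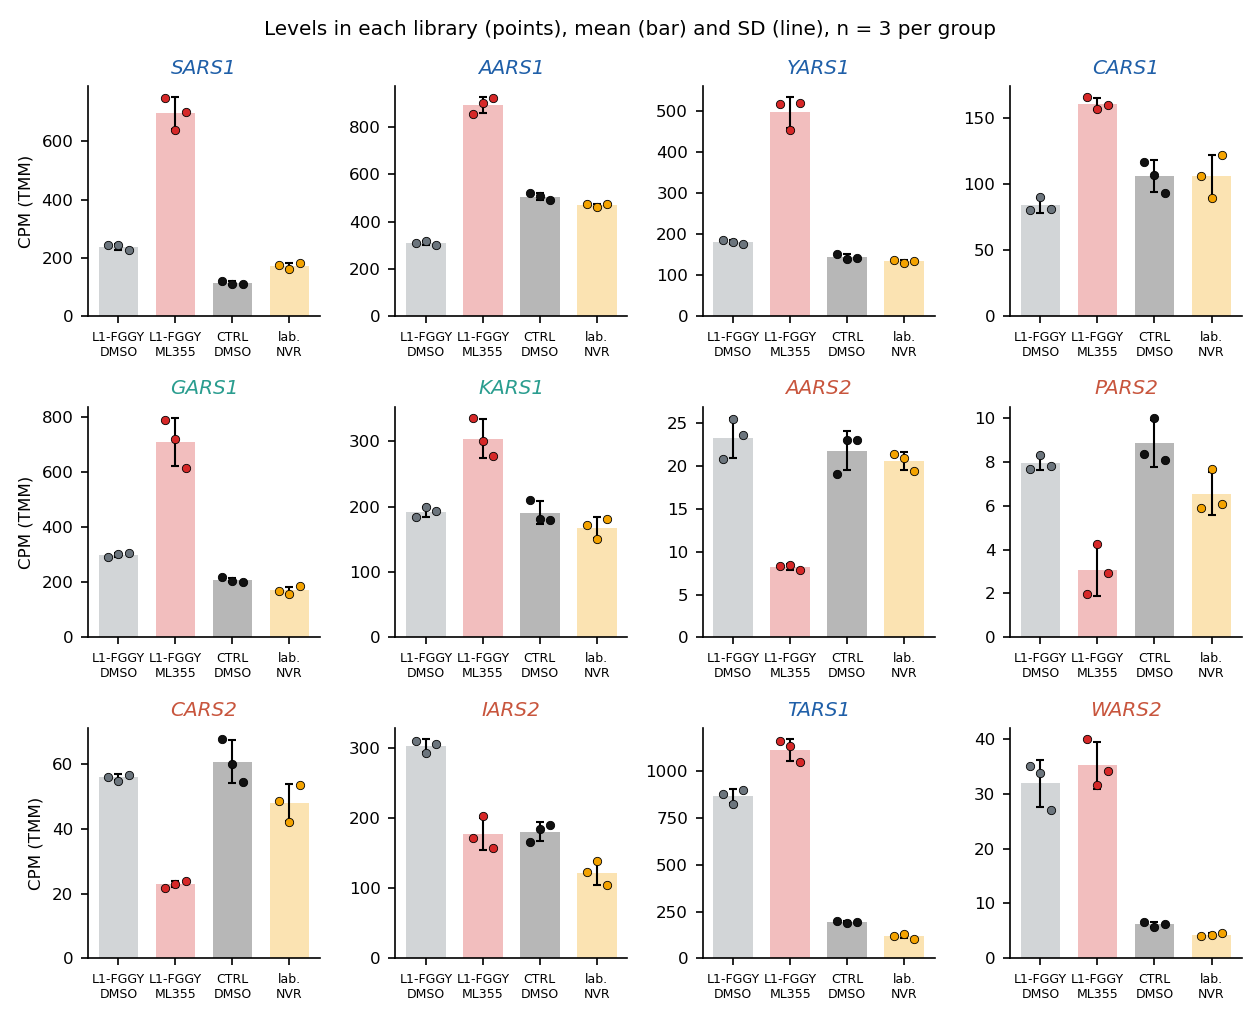
TMM-scaled CPM of 12 genes in each of the 12 libraries (points), with the group mean as bar and the SD as line; titles are coloured blue for cytosolic, green for dual and red for mitochondrial enzymes. ML355 libraries stand highest for the first 6 genes and lowest for AARS2, PARS2 and CARS2, while TARS1 and WARS2 separate the OV-L1-FGGY libraries from the other 6.

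Cytosolic and mitochondrial enzymes of the same amino acid could be paired for 14 amino acids. The ratio of cytosolic to mitochondrial RPKM was higher with ML355 in 12 pairs, each without overlap of the libraries, and lower in 2. Lack of overlap was common in this comparison: over all genes tested, single levels were higher without overlap for 30% and lower without overlap for 32.6%. AARS1 over AARS2 moved from a log2 ratio of 4.21 ± 0.131 to 7.24 ± 0.104 (SD, n = 3), and CARS1 over CARS2 from 0.01 ± 0.117, near equal levels, to 2.24 ± 0.095. IARS1 over IARS2 was negative in the OV-L1-FGGY DMSO libraries, at -0.99 ± 0.021, and reached 0.08 ± 0.114 with ML355. The pairs that went the other way were HARS1 over HARS2, from 1.61 ± 0.11 to 1.30 ± 0.089, and WARS1 over WARS2, from 2.61 ± 0.197 to 2.48 ± 0.205, where the libraries overlapped. Over the 14 pairs, the median log2 ratio of each library was 2.39, 2.37 and 2.42 with DMSO and 3.16, 3.23 and 3.02 with ML355. OV-CTRL lay at 2.08, 2.17 and 2.29 and the libraries labelled NVR at 2.02, 1.97 and 2.13, so that the ML355 libraries stood above the other 9. Summed RPKM of the cytosolic class rose from between 1202 and 1223 to between 1999 and 2107 under ML355, and that of the mitochondrial class went from between 228 and 239 to between 164 and 175. The ratio of SARS1 to SARS2 rests on few SARS2 counts. As 48.2% of the exon bases of SARS2 overlap another gene on its strand, this ratio is uncertain.

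**Figure D3:**
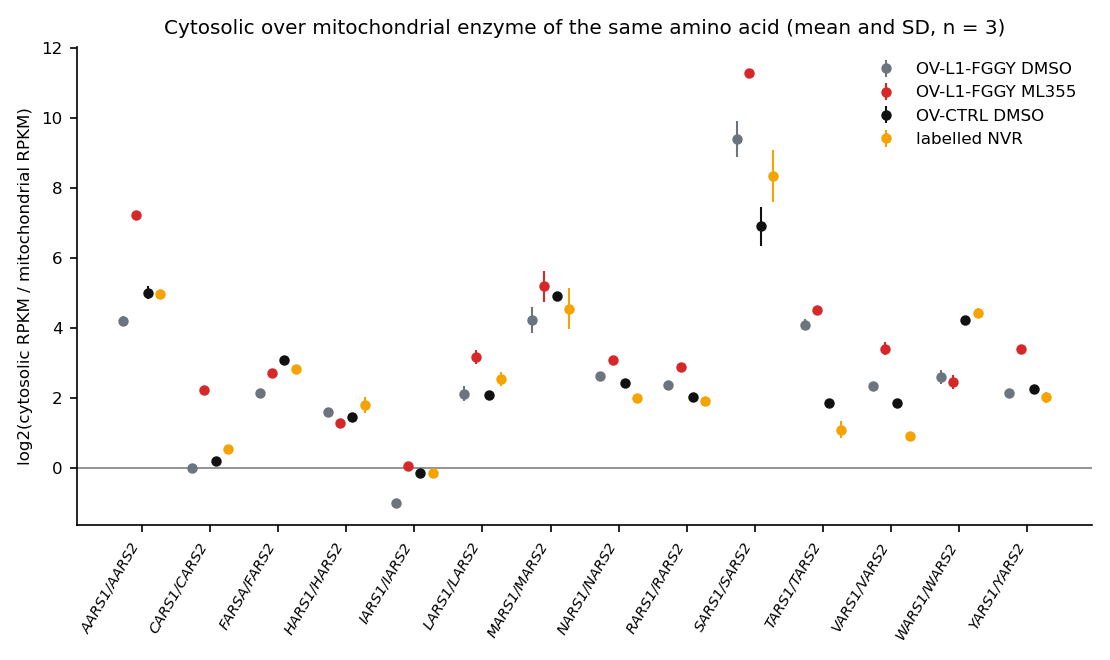
Log2 ratio of the RPKM of the cytosolic enzyme to that of the mitochondrial enzyme for 14 amino acids (x axis), as mean and SD of 3 libraries per group. The ML355 group lies above OV-L1-FGGY DMSO in 12 pairs and below it for HARS1/HARS2 and WARS1/WARS2.

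Among the scaffold proteins of the multisynthetase complex, AIMP1 rose 1.68-fold under ML355, from 51.1, 47.4 and 44.1 CPM to 89.1, 76.2 and 74 CPM (edgeR adjusted p = 0.00013). EEF1E1 was at 14.9, 14 and 12.6 CPM and at 17.5, 18.5 and 29.1 CPM (log2 fold change 0.65 ± 0.249, adjusted p = 0.0352, edgeR), and its exons overlap by 18.8% with the read-through gene EEF1E1-BLOC1S5. AIMP2 was at 18.4, 18 and 18 CPM and at 17.3, 15.1 and 16.4 CPM (log2 fold change -0.15 ± 0.137, adjusted p = 0.361, edgeR), and 29.1% of its exon bases lie opposite another gene. Thus 1 of the 3 scaffold genes was called. Of the 7 enzymes of the complex, 4 rose (57.1%) and 0 fell (median log2 fold change 0.44). Of the 13 cytosolic and dual enzymes outside it, 10 rose (76.9%, median 0.54), when 21.3% of all genes tested rose.

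Genes of the amino acid response rose alongside. ATF4 had 329, 388 and 385 CPM with DMSO and 1354, 1197 and 1410 CPM with ML355, a 3.59-fold rise (edgeR adjusted p = 1.78e-08). Of 32 listed genes of this response, 23 rose and 4 fell (71.9% and 12.5%), with a median log2 fold change of 1.01. Over all genes tested, 21.3% rose and 23.5% fell. ASNS (asparagine synthetase) went from 0.287, 0.841 and 0.353 CPM to 28, 25.7 and 37 CPM, and DDIT3 (the stress factor CHOP) from 6.02, 7.42 and 8.26 CPM to 433, 311 and 308 CPM. The log2 fold changes of the transcription factors ATF3 and CEBPG were 3.56 and 1.99, that of the mitochondrial folate enzyme MTHFD2 2.34, that of CHAC1 (glutathione degradation) 2.69 and that of the pseudokinase TRIB3 1.31. The 4 that fell were the amino acid transporters SLC38A2 (log2 fold change -1.47), SLC6A9 (-1.21) and SLC7A11 (-0.99) and the serine synthesis enzyme PSPH (-0.65). Of the exon bases of ASNS, 49.3% overlap another gene on its strand, so its counts are uncertain. Of those of DDIT3, 31.6% lie opposite MARS1 and MBD6, so part of the DDIT3 reads is uncertain too. The list was known to move in these libraries when it was drawn up, so its direction is no independent evidence.

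Of 9 listed cytosolic proteins that handle tRNA or carry it to the ribosome, 8 could be tested, of which 6 rose and 2 fell under ML355. The 6 include AARSD1, which had 3, 1 and 8 counts with DMSO and 7, 22 and 24 with ML355, with overlapping libraries. Of the exon bases of AARSD1, 34.2% overlap another gene on its strand, so its counts are uncertain. TRNT1, which adds the CCA end to tRNA in both compartments, rose 1.67-fold. XPOT, the exportin for tRNA, rose 2.67-fold, from 282, 247 and 263 CPM to 732, 722 and 661 CPM. The elongation factor EEF1A1, which delivers charged tRNA, rose 1.99-fold, its exchange factor EEF1B2 1.68-fold and the deacylase DTD1 2.59-fold, while EEF1A2 and DTD2 fell to 0.495 and 0.65 times the control. Of the exon bases of DTD2, 55.9% lie opposite another gene, so part of its reads is uncertain. EEF1G had 0 counts in every library, but 99.7% of its exon bases overlap another gene on the same strand, so its level cannot be read from these counts. Of 7 mitochondrial partners, QRSL1 rose (1.46-fold) and GATB and TSFM fell (to 0.629 and 0.627 times), shares of 14.3% and 28.6% near the background of 21.3% and 23.5%. TSFM shares 67.3% of its exon bases with another gene on its strand, so its counts are uncertain. QRSL1 and GATB are subunits of one amidotransferase, which makes glutaminyl-tRNA in mitochondria, and they moved in opposite directions.

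Promoter sequence was set beside these values, since ATF4 binds with C/EBP partners to elements of the form TGATGNAA. RefSeq promoter windows (GRCh38.p14, 250 bases before to 50 after the start, the first window listed for each gene) matched 33 of the 39 genes. LARS1, TARS3, VARS1, YARS1, AARS2 and VARS2 had no entry. On either strand the 8 letters occurred in 6 of 14 cytosolic windows (42.9%), 1 of 14 mitochondrial windows (7.14%), 0 of 2 dual and 0 of 3 scaffold windows, and in 3.67% of the windows of 27305 genes. The 7 matches are shown with 11 bases on each side, read along the gene's own strand, with the motif or its reverse complement in capitals. They are shown because they are the only such letters found in the members' windows that were searched. Of the cytosolic genes shown, 5 were called higher under ML355, and IARS1 had a log2 fold change of 0.28. The call of TARS1 was lost in 5 of the 6 fits without a single library, and that of NARS1 in 1. Among cytosolic genes whose window held no match, EPRS1, FARSB and SARS1 were called higher, and FARSA, HARS1, QARS1, RARS1 and WARS1 were not called. In the whole class 12 of 18 rose (66.7%), and a relation between match and rise was not tested.

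AARS1: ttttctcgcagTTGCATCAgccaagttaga
CARS1: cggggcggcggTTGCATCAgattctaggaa
IARS1: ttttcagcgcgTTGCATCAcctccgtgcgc
MARS1: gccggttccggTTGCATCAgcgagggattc
NARS1: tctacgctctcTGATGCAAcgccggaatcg
TARS1: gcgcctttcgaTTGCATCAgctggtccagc
YARS2: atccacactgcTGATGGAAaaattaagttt

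The AARS1 match lies 187 bases before the RefSeq start (chr16:70289675-70289704, minus strand), and the others of the cytosolic set lie within 14 bases of it: CARS1 (chr11:3057407-3057436, minus), IARS1 (chr9:92293692-92293721, minus), MARS1 (chr12:57488053-57488082, plus), NARS1 (chr18:57621804-57621833, minus) and TARS1 (chr5:33440956-33440985, plus). GENCODE places the start of AARS1 at 70289707, so the AARS1 stretch lies inside that gene model. The stretches of the other cytosolic genes also lie inside their GENCODE models, and the MARS1 model starts at 57475445, far before its stretch. The YARS2 model, on the minus strand, starts at 32755897, so the YARS2 stretch lies before it. All 6 cytosolic matches hold the same 8 letters, TTGCATCA or its reverse complement, while YARS2 (chr12:32756076-32756105, minus, 197 bases before the start) has another base at the open position. SARS1 and GARS1, with log2 fold changes of 1.55 and 1.24, held no match in the first window listed, and neither did WARS1 or HARS1. SARS1, GARS1 and WARS1 each have a further window, which was not searched. A match is a description of the letters, not a bound site, and its absence says only that they are not in this window.

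The comparison of OV-L1-FGGY with OV-CTRL, both in DMSO, asked what overexpression of L1-FGGY does, and it sets the 2 sides of the libraries against each other. Of the cytosolic genes, 6 were higher and 5 lower in OV-L1-FGGY (33.3% and 27.8%), and of the mitochondrial ones 4 and 4 (25% each), when 32.5% of all genes tested were higher and 36.2% lower. The shares of both classes were thus near or under the background. TARS1 was at 879, 828 and 899 CPM in OV-L1-FGGY and 199, 191 and 195 CPM in OV-CTRL, a log2 fold change of 2.16 ± 0.112 (SE; edgeR adjusted p = 4.72e-11). WARS2 was at 35, 33.8 and 27 CPM against 6.56, 5.63 and 6.33 CPM (log2 fold change 2.37 ± 0.144, edgeR adjusted p = 3.38e-10). These single genes, one of each class, were 4.46- and 5.17-fold higher, with wide gaps between the libraries.

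EPRS1 was at 349, 333 and 336 CPM in OV-L1-FGGY and 127, 139 and 148 CPM in OV-CTRL, 2.46-fold higher, and SARS1 at 122, 112 and 110 CPM in OV-CTRL was 2.07-fold higher in OV-L1-FGGY. RARS1, WARS1 and YARS1 were 1.74-, 1.67- and 1.25-fold higher, and the dual enzyme GARS1, at 217, 205 and 202 CPM in OV-CTRL, was 1.44-fold higher. FARSA was lower, at 77.7, 78.1 and 79.9 CPM against 169, 156 and 136 CPM, as were MARS1, AARS1, FARSB and HARS1, at 0.58, 0.612, 0.688 and 0.69 times OV-CTRL. KARS1 had a log2 fold change of 0.01 ± 0.113 (adjusted p = 0.948, edgeR) and TARS3 -0.20 ± 0.157. AARS1, FARSB and MARS1, which were lower in OV-L1-FGGY than in OV-CTRL, were among the genes higher with ML355 than with DMSO in OV-L1-FGGY, and SARS1, EPRS1, TARS1 and YARS1 were higher in both comparisons. As both comparisons use the OV-L1-FGGY DMSO libraries, no relation between them is drawn.

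Among mitochondrial enzymes, IARS2, RARS2 (arginyl) and YARS2 were also higher in OV-L1-FGGY (1.68-, 1.35- and 1.36-fold). EARS2 was at 22.9, 17.8 and 20 CPM against 38.6, 39.8 and 40.8 CPM in OV-CTRL, VARS2 at 27.7, 24.7 and 25.4 CPM against 44.5, 44.9 and 44.7 CPM, and HARS2 was 0.617 times OV-CTRL. SARS2 had 8, 7 and 4 counts against 16, 35 and 23, with an adjusted p of 0.00916 (edgeR), and 48.2% of its exon bases overlap another gene on the same strand. All 3 scaffold genes were called: AIMP2 at 18.4, 18 and 18 CPM against 49.5, 48.1 and 44.6 CPM was lower, EEF1E1 against 8.71, 6.1 and 5.72 CPM was 2.02-fold higher and AIMP1 against 38.7, 34.2 and 32.5 CPM 1.35-fold higher. Calls lost without a single library were those of SARS2 (without OV-L1-FGGY DMSO replicate 1, 2 or 3 or OV-CTRL replicate 2 or 3, adjusted p by edgeR up to 0.0659), YARS1 (without OV-L1-FGGY DMSO replicate 1, 2 or 3 or OV-CTRL replicate 2 or 3, up to 0.0294), RARS2 and AIMP1 (without OV-L1-FGGY DMSO replicate 1 or 2 or OV-CTRL replicate 2 or 3, up to 0.0233 and 0.0301), YARS2 (without OV-L1-FGGY DMSO replicate 1 or OV-CTRL replicate 2 or 3, up to 0.0168) and EEF1E1 (without OV-CTRL replicate 3, 0.0117). CARS1 was called without OV-CTRL replicate 3 (edgeR adjusted p = 0.00931). The mitochondrial count fell from 8 to 5 without OV-L1-FGGY DMSO replicate 1, OV-CTRL replicate 2 or OV-CTRL replicate 3. Of the 32 genes of the amino acid response, 4 were higher and 18 lower (12.5% and 56.2%), when 32.5% of all genes tested were higher and 36.2% lower. ASNS, CHAC1 and DDIT3 were at 0.147, 0.144 and 0.392 times OV-CTRL. ATF4 had a log2 fold change of -0.22 ± 0.132 (adjusted p = 0.138, edgeR), TRIB3 -0.04 ± 0.112, and CTH (cysteine synthesis) was 25.8-fold higher. XPOT was 1.9-fold higher.

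The libraries labelled NVR were set first against OV-CTRL with DMSO, the group on their side. Of the cytosolic genes 2 were higher and 5 lower (11.1% and 27.8%), and of the mitochondrial ones 0 and 4 (0% and 25%), while 14.5% of all genes tested were higher and 15.3% lower. The median log2 fold changes were -0.26 and -0.27 for the classes and 0.00 over all genes, so the medians of the 2 classes lay close to each other here. TARS1 was lower, at 117, 128 and 106 CPM against 199, 191 and 195 CPM (log2 fold change -0.74 ± 0.108, edgeR adjusted p = 6.65e-05), as was NARS1 at 88, 104 and 74.9 CPM against 128, 144 and 152 CPM. VARS1 was at 119, 104 and 137 CPM against 200, 191 and 177 CPM, and MARS1 at 183, 196 and 177 CPM against 281, 282 and 284 CPM. In these 4 genes every library labelled NVR lay below every OV-CTRL library. The share of all genes without overlap was not counted for this comparison, so this is a description only. IARS1 was at 0.686 times OV-CTRL, and its call was lost without labelled NVR replicate 1 (adjusted p = 0.0101, edgeR) or OV-CTRL replicate 3 (0.0109). FARSB was called without labelled NVR replicate 3 and LARS1 without labelled NVR replicate 2 (edgeR adjusted p = 0.00758 and 0.00548). SARS1 and QARS1 were 1.51- and 1.48-fold higher.

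The mitochondrial enzyme EARS2 was at 18.9, 21.2 and 17 CPM in the libraries labelled NVR against 38.6, 39.8 and 40.8 CPM in OV-CTRL (log2 fold change -1.06 ± 0.125, edgeR adjusted p = 7.53e-06). LARS2 was at 15.4, 19.3 and 12.4 CPM against 26.5, 28.1 and 28 CPM, HARS2 at 28.4, 29.7 and 22.5 CPM against 42.5, 38 and 41.1 CPM, and IARS2 at 123, 139 and 105 CPM against 166, 185 and 191 CPM. The groups did not overlap for any of the 4, again without a share over all genes to set beside it. AARS2, CARS2 and PARS2 had log2 fold changes of -0.08, -0.34 and -0.43 with adjusted p of 0.622, 0.0251 and 0.116 (edgeR). GARS1, KARS1, WARS1, HARS1 and TARS3 were not called (-0.29, -0.19, -0.28, -0.24 and 0.44). AIMP2 was lower, at 30.7, 31.1 and 21.6 CPM against 49.5, 48.1 and 44.6 CPM, while AIMP1 and EEF1E1 had log2 fold changes of 0.06 and 0.03. With library size alone in place of TMM, 2 cytosolic genes were higher and 9 lower (11.1% and 50%). Over all genes tested, 10.2% were higher and 18% lower under this scaling, and their median moved to -0.15. Of the amino acid response list 5 genes were higher and 12 lower (15.6% and 37.5%), when 14.5% of all genes tested were higher and 15.3% lower. Those called included ASNS, TRIB3 and the alanine transaminase GPT2 at 0.3, 0.506 and 0.46 times OV-CTRL and the transcription factor ATF5 at 2.3 times. ATF4, CHAC1 and DDIT3 had log2 fold changes of 0.41, -0.51 and -0.32 (adjusted p = 0.0189, 0.0655 and 0.15, edgeR), and XPOT was at 0.614 times OV-CTRL.

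Set against OV-L1-FGGY with DMSO, the group their label names as control, the libraries labelled NVR crossed the sides again. Of the cytosolic genes 4 were higher and 8 lower, and of the mitochondrial ones 1 and 3, when 38.2% of all genes tested were higher and 35.4% lower. TARS1 and WARS2 were at 0.135 and 0.136 times OV-L1-FGGY DMSO, with log2 fold changes of -2.89 ± 0.115 and -2.88 ± 0.151. WARS2 was at 4.1, 4.26 and 4.66 CPM in the libraries labelled NVR. EPRS1 (127, 138 and 126 CPM), WARS1 (91.8, 90.6 and 89 CPM) and NARS1 were at 0.384, 0.492 and 0.557 times, RARS1, SARS1, IARS1 and YARS1 at 0.603, 0.73, 0.734 and 0.743 times, and GARS1 (168, 158 and 185 CPM) at 0.57 times. TARS3, FARSA, AARS1 and QARS1 were 1.55-, 1.52-, 1.52- and 1.37-fold higher. In the mitochondrial class IARS2 and LARS2 were at 0.403 and 0.687 times, and VARS2, at 54.1, 49.4 and 59.4 CPM, was 2.09-fold higher. EEF1E1 (7.26, 4.3 and 9.66 CPM) was at 0.505 times and AIMP2 1.53-fold higher. The split depended on the scaling: 6 cytosolic genes were higher and 7 lower with DESeq2's size factors, and 1 and 9 with library size alone. Over all genes tested, 39.7% were higher and 33.8% lower with DESeq2's size factors, and 33.5% and 39.4% with library size alone. IARS1 lost its call without OV-L1-FGGY DMSO replicate 1 or 3 or labelled NVR replicate 1 or 3 (adjusted p by edgeR up to 0.0141), LARS2 without OV-L1-FGGY DMSO replicate 3 or labelled NVR replicate 1 or 3 (up to 0.0253), and TARS3 and EEF1E1 without OV-L1-FGGY DMSO replicate 2 and 1 (0.0102 each). CARS1 was called without labelled NVR replicate 2, and AIMP1 and VARS1 without labelled NVR replicate 3 (edgeR adjusted p = 0.00298, 0.002 and 0.00215).

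**Figure D4:**
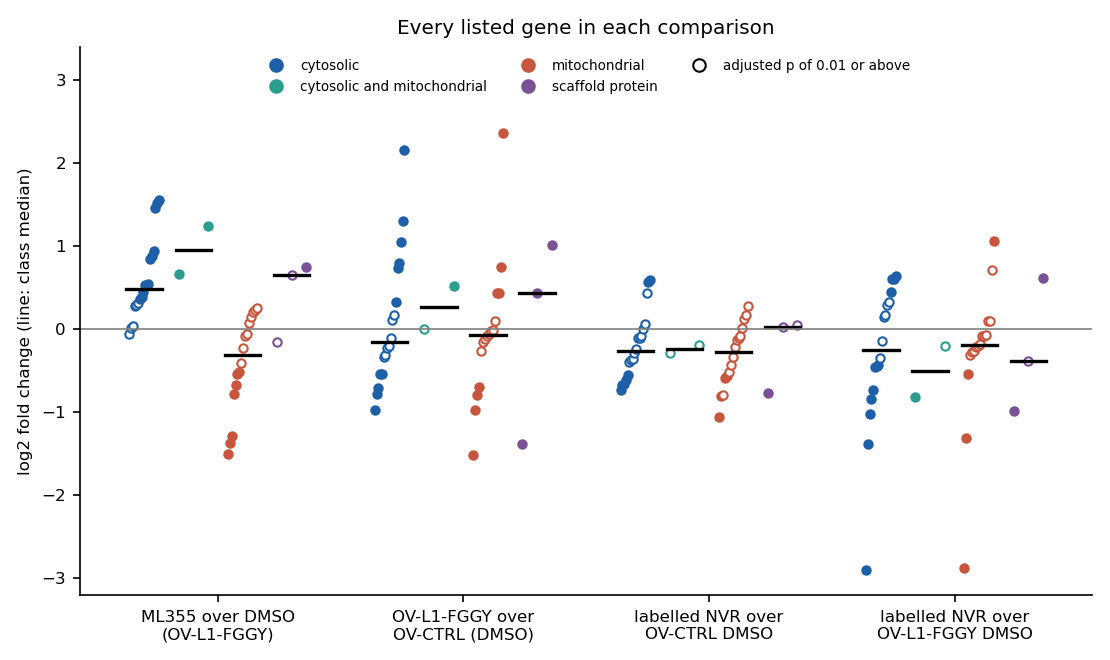
Log2 fold change of every listed gene in the 4 comparisons (x axis), by class, with the class median as a line; filled points passed the adjusted p of 0.01. The cytosolic and mitochondrial medians are 0.49 and -0.31 under ML355 and -0.26 and -0.27 where the NVR label is set against OV-CTRL.

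Whether the inhibitor comparisons differ was tested gene by gene, as the log2 fold change of labelled NVR against OV-CTRL minus that of ML355 against DMSO, which share no libraries but differ in their DMSO group too. The difference was called for 12 of the 18 cytosolic genes, both dual enzymes, 5 of the 16 mitochondrial enzymes and 1 of the 3 scaffold genes, against 34.1% of all genes tested in either direction, so the share of the mitochondrial class was near the background. All 14 cytosolic and dual differences that were called were negative, meaning a lower value for labelled NVR. AARS1, which rose under ML355, was at 474, 463 and 474 CPM in the libraries labelled NVR and 522, 507 and 490 CPM in OV-CTRL, a difference of -1.63 ± 0.141. Of the mitochondrial enzymes AARS2, CARS2 and VARS2 had positive differences (1.42, 0.95 and 0.95) and EARS2 and HARS2 negative ones (-1.29 and -0.85). TARS3, QARS1, WARS1, RARS1, HARS1 and FARSA were the cytosolic genes for which no difference was called. The call of EPRS1 was lost in 9 of the 12 fits that left out a single library, all but those without ML355 replicate 3, labelled NVR replicate 2 or OV-CTRL replicate 1 (adjusted p by edgeR up to 0.0267), and that of AIMP1 in 7, without OV-L1-FGGY DMSO replicate 2 or 3, ML355 replicate 1, labelled NVR replicate 1 or 2 or OV-CTRL replicate 1 or 2 (up to 0.0197). AIMP2 was called without labelled NVR replicate 2 and PARS2 without ML355 replicate 2 (edgeR adjusted p = 0.00745 and 0.00212).

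**Figure D5:**
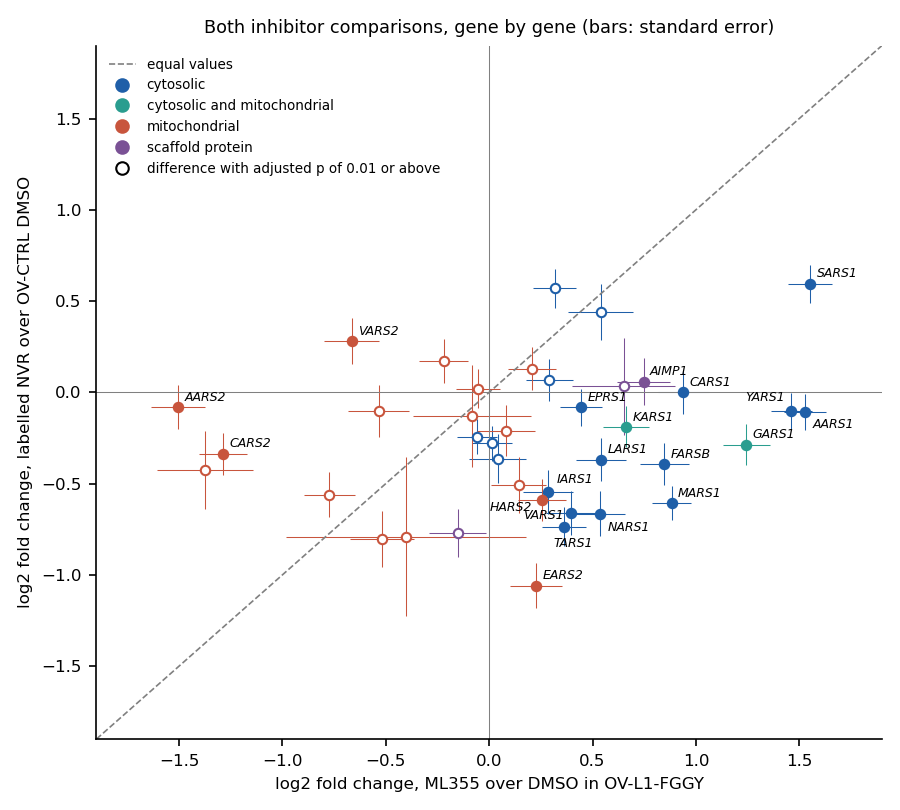
Log2 fold change under ML355 in OV-L1-FGGY (x axis) against that of the libraries labelled NVR over OV-CTRL DMSO (y axis) for the 39 genes, with standard errors; filled and named points differ between the comparisons at an adjusted p of 0.01 and the dashed line marks equal values. The named cytosolic genes lie right of and below the line, and AARS2, CARS2 and VARS2 lie left of and above it.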

How the data were processed

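Whole-number read counts per gene were deposited for 12 libraries; per the submitters' processing notes, the authors used STAR 2.5.3a with hg38 and HTSeq 0.11.2, and the counts carry no normalization. The annotation release, strand setting and handling of multiply mapped reads are not given in the sources used here, and the labels name a TruSeq kit where the methods name NEB. The table's columns call the NVR and control libraries only NVR and DMSO; the DMSO columns were read as OV-CTRL, as the OV-L1-FGGY DMSO libraries have their own. Of 58302 identifiers, 57532 matched GENCODE 44. Totals ran from 16242082 to 27004768 counts (3 counts correspond to 0.111 to 0.172 CPM), which sets the precision of low genes such as SARS2.

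Tests used edgeR 4.0.16 (filterByExpr, TMM, robust quasi-likelihood fit of 4 group means, adjusted p under 0.01 over 17849 genes; common biological coefficient of variation 0.143). The standard error is the log2 fold change over the root of F. RPKM divide TMM-scaled CPM by the GENCODE canonical transcript. Groups followed the labels. No library pair agreed within sampling noise. The scripts were tested on simulated counts. As alternatives, limma 3.58.1 (voom), DESeq2 1.42.0, other scalings, filters and thresholds, fits of 2 groups, a replicate block, and fits without each single library were run. The members and gene lists were chosen with earlier results of these data known, so no p is given for a list. The genes named were every called member, a fixed set of further members and, of the other lists, up to 5 called genes with the smallest p. Further genes of these lists were named after their values were seen (SLC38A2, SLC6A9, SLC7A11, PSPH, EEF1A2, DTD2, AARSD1, TRNT1, QRSL1, TSFM and EEF1G). Figures were made with Python 3.11.15 and matplotlib 3.10.9.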

Additional observations from a re-analysis of the deposited data

Results flagged for a closer look

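For 20 members the effect of one inhibitor comparison differed from that of the other by the test of the difference itself (edgeR's quasi-likelihood test, adjusted p under 0.01), when 34.1% of all genes tested were called. The 5 of 16 mitochondrial enzymes among them are a share near that background. The value is the log2 fold change of labelled NVR over OV-CTRL minus that of ML355 against DMSO in OV-L1-FGGY. Among cytosolic enzymes it was -1.63 for AARS1, -1.56 for YARS1, -1.49 for MARS1, -1.24 for FARSB, -1.20 for NARS1, -1.10 for TARS1, -1.06 for VARS1, -0.96 for SARS1, -0.94 for CARS1, -0.91 for LARS1, -0.83 for IARS1 and -0.53 for EPRS1. For the dual enzymes it was -1.53 for GARS1 and -0.85 for KARS1, and for the scaffold gene AIMP1 it was -0.69. Among mitochondrial enzymes it was 1.42 for AARS2, 0.95 for CARS2, 0.95 for VARS2, -0.85 for HARS2 and -1.29 for EARS2. SARS1 was higher in both comparisons and LARS2 and IARS2 lower in both. As the comparisons differ in inhibitor, dose and DMSO group, the test does not separate these.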

How the results depend on the processing

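No member that was called changed sign under the alternatives checked gene by gene. That check left out the other filters on low counts and the fits of 2 groups. Of the counts that follow, only those of the scalings have shares over all genes, given above, so the others have no background. Where a log2 fold change of 1 or more in size was also required, the calls under ML355 were 3 cytosolic and 3 mitochondrial genes, for OV-L1-FGGY against OV-CTRL 3 and 2, for labelled NVR against OV-CTRL 0 and 1 (7 of the amino acid response list), for labelled NVR against OV-L1-FGGY 3 cytosolic, and for the difference 7 and 2. With library size alone there were 6 cytosolic calls under ML355 (12 with TMM), 11 for labelled NVR against OV-CTRL (7 with TMM) and 7 mitochondrial calls for labelled NVR against OV-L1-FGGY (4 with TMM). With an adjusted p under 0.05, 13 cytosolic genes were called for labelled NVR against OV-CTRL. Without a filter on low counts, and with at least 10 counts in every library, 5 mitochondrial genes were called for OV-L1-FGGY against OV-CTRL (8 with the filter used), and with 1 library left out 5 to 8. Without 1 library the calls under ML355 ranged from 8 to 12 cytosolic and 5 to 6 mitochondrial genes. With DESeq2 there were 13 and 7, and with voom 12 and 7. Equal replicate numbers did not deviate together in all pairs (correlations of -0.0258, -0.0348 and -0.0521 for ML355 and DMSO), and the replicate block gave 9 cytosolic and 6 mitochondrial calls under ML355, losing TARS1, TARS3, VARS1 and LARS2. Depth and the overlap of its exons with another gene limit SARS2, with 4 to 35 counts.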
